A study of Acipenser transmontanus and Acipenser medirostris with 18 samples.

Results

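The genes described here are those that the sterlet annotation names anterior gradient protein, trefoil factor or mucin followed by a number. They were chosen by these protein names, with earlier results of these data known. Counts were summed over each PacBio locus, the gene unit of the long-read transcript models. The names matched 59 of 70537 transcripts and 912 of 2734415 counts, at 13 of 13249 loci. By role, 5 loci were anterior gradient proteins, 1 was a trefoil factor, 4 were gel-forming mucins and 3 were membrane mucins. Of the 13 loci, 9 had at least 10 counts over all libraries, 6 of these had at least 50, and 4 had fewer than 10.

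Anterior gradient proteins are disulfide isomerases of the endoplasmic reticulum. In the mouse, Agr2 is needed by goblet cells to make the intestinal mucin Muc2, and in frogs and newts the family is known from the cement gland and the regenerating limb. Gel-forming mucins are secreted, link through disulfide bonds and make up the mucus gel, whereas membrane mucins stay anchored at the cell surface. Trefoil factors are small secreted proteins with cysteine-rich loops that mammalian mucous cells release together with mucins. Sturgeon skin and the lining of the mouth and esophagus carry a living epithelium with mucous cells.

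PacBio Iso-Seq, which reads whole polyadenylated transcripts, was run on 18 libraries of untreated sturgeon. Green sturgeon (Acipenser medirostris) gave 6 octoploid epithelial cultures: EM from the esophagus of a male, IM and IF from the upper palate of a male and a female, MM from the mouth rim of a male, and GA1 and AF from ampullae of Lorenzini, AF being female and GA1 having no sex given. White sturgeon (Acipenser transmontanus) gave 5 epithelial cultures, which were W12 from a dodecaploid mouth rim, WM and W8 from octoploid mouth rims, and WS1 and WS2 from octoploid skin, and also 6 octoploid tissues, 1 each from esophagus (WE1), upper palate (WI1), mouth rim (WM2), dorsal skin (WDS1), barbel (WB2) and ampullae of Lorenzini (WA2). A further green library, FAF, was of fibroblasts and adipocytes from an octoploid female. Cultures were started as explants, before trypsinization in white sturgeon and after it in green sturgeon. Which fish gave each library is not stated, so p-values measure at most the spread between these libraries, which may share fish.

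The libraries held 29797 (WE1) to 302286 (AF) counts, so that 1 count stood for 33.6 to 3.31 counts per 1000000 counts of the library (CPM), and levels are given in CPM. Intervals of a level are Wilson 95% intervals and those of a ratio are exact binomial 95% intervals, both for counting error only, and a count of 0 allows up to 3 counts. In WE1 only 65.2% of the counts had a protein name, against 80.8% to 98.4% in the other 17 libraries. Summed epithelial markers ran between 11024 CPM in EM and 107614 CPM in W12 among the cultures, and from 41145 to 190972 CPM in the tissues. FAF stood at 4074 CPM of epithelial and 35867 CPM of connective tissue markers, and 0 counts carried the name epithelial cell adhesion molecule. Green cultures, white cultures and tissues (1294622, 555830 and 640951 counts in all) had 1241, 574 and 170 counts of decorin. Of collagen alpha-1(I) they had 40, 12 and 190. Of adipocyte markers, FAF had 298 counts of perilipin and 0 of adiponectin, against 1278 and 4 in the green epithelial cultures. Tissues, the white cultures with GA1, and the other green libraries were numbered as 3 separate sets, so that set and kind of sample cannot be told apart between culture and tissue.

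The largest member was PB.4814, named anterior gradient protein 2 homolog (AGR2), with 333 counts. The green esophagus culture EM held 296 of them, 1081 CPM (95% interval 965 to 1212). The other green cultures had 3 counts in IF, 2 in MM, 1 in IM and 0 in AF and GA1. Thus AGR2 reads of the green cultures lay almost wholly in the culture from the esophagus. White cultures had 1 count each in WM and WS2 and 0 in WS1, W12 and W8. The white esophagus tissue WE1 had 9 counts, 302 CPM (159 to 574), which was the second highest level of the 18 libraries and the highest of the tissues. The upper palate tissue followed with 8 counts (103 CPM), then dorsal skin with 7 (54.5 CPM) and mouth rim with 5 (39.8 CPM). The counting interval of WE1 overlapped that of the upper palate but not those of dorsal skin and mouth rim. Barbel and ampullae tissue and FAF had 0 counts, which allows up to 14.7, 39.8 and 12.3 CPM.

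**Figure D1:**
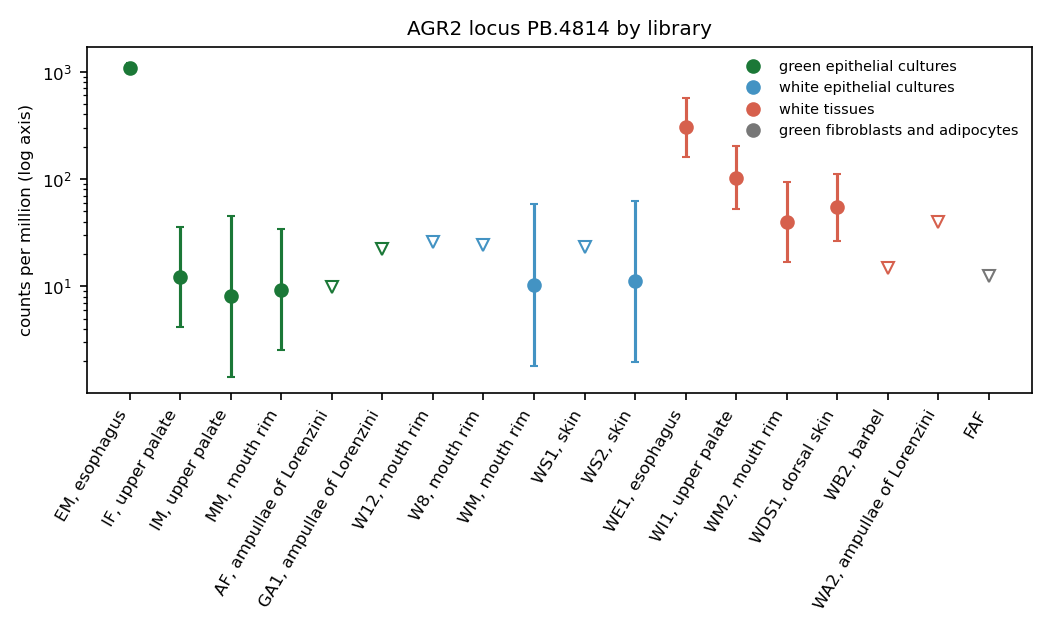
Level of the AGR2 locus PB.4814 in each of the 18 libraries, in CPM on a log axis, coloured by group. Filled points are measured levels with Wilson 95% intervals and open triangles mark the upper limit of 3 counts where none was seen. The green esophagus culture EM stands at 1081 and the white esophagus tissue WE1 at 302, above all others.

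Set against the same kind of sample, EM had 1081 CPM and the 5 other green cultures pooled had 5.88 CPM, a ratio of 184 (95% counting interval 83.5 to 505). Among the tissues, WE1 had 302 CPM and the 5 others pooled 32.7 CPM, a ratio of 9.23 (3.70 to 21.2). The difference between these ratios was not tested. EM stood 3.58 times above WE1 (1.86 to 7.91), but EM and WE1 differ in species as well as in culture against tissue, which cannot be told apart. In EM, 282 of the 296 counts belonged to 1 transcript, PB.4814.2, and 14 to PB.4814.3. The same PB.4814.2 took all 9 counts in WE1 and all 7 in dorsal skin, so the leading transcript was shared by both species.

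Whether the esophagus differed from the integument was fitted over 17 libraries with the kind of sample and the upper palate in the model, ampullae, mouth rim, skin, dorsal skin and barbel being the reference. PB.4814 was higher at the esophagus by 6.46 on the log2 scale (SE 0.878, adjusted p = 0.000660, edgeR's quasi-likelihood test with Benjamini-Hochberg adjustment). SE here and below was worked back from that test, as the size of the log2 difference over the square root of F. Of 3723 loci tested, 3 passed, or 0.0806%, and PB.4814 had the smallest p. Its level in both esophagus libraries (mean 708 CPM) lay above that in every integument library (mean 11.1 CPM). Groups that did not overlap in this way were found at 2.58% of the loci tested. Another of the 3 was PB.18995, labelled a low quality mucin-2, described with the gel-forming mucins, and the third, PB.10998, had no name. PB.4814 passed the filter on low counts through EM, WE1 and WI1, as no integument library exceeded 54.5 CPM. PB.18995 passed through WE1 and WI1. Neither could therefore readily have been called lower at the esophagus, so these calls are no test of direction.

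The call on PB.4814 rested on EM. Without EM the log2 difference was 3.41 with adjusted p = 0.222, and without WE1 it was 8.38 with adjusted p = 6.58e-05 (both edgeR). In each of these fits 1 esophagus library was left, which was taken to vary like the others.

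**Figure D2:**
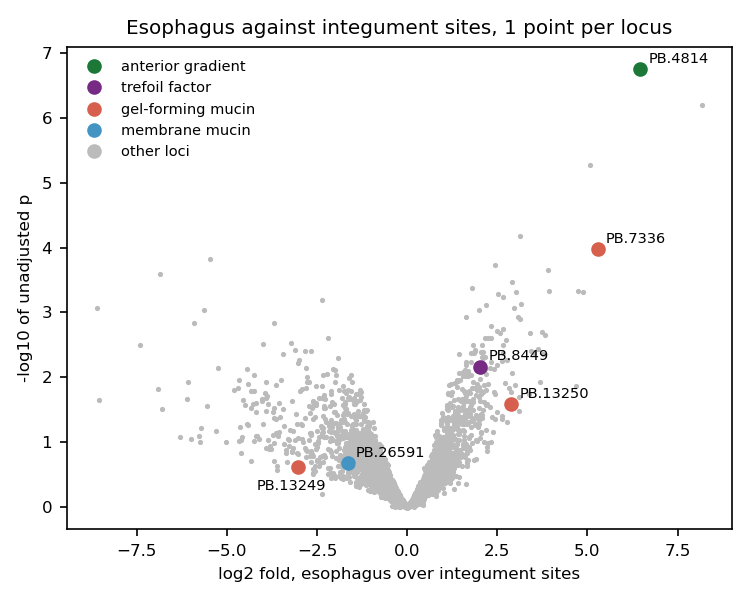
Fold of each of 3723 loci at the esophagus over the integument sites (x axis, log2) against its unadjusted p (y axis, -log10), from edgeR. Member loci that passed the filter on low counts are coloured by role. PB.4814 has the smallest p, at a log2 fold of 6.46, and PB.7336 lies at 5.28. PB.18995, drawn among the other loci, lies farther right at 8.17.

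The other anterior gradient loci were small. PB.4817, also named AGR2, had 15 counts (54.8 CPM) in EM, 1 in IF, 1 in the skin culture WS1, 1 in WE1 and 7 (54.5 CPM) in dorsal skin tissue. Dorsal skin was therefore the one tissue with more than 1 count of both main AGR2 loci. PB.3657 had 7 counts, 5 of them in EM, PB.3662 had 5, all in EM, and PB.10327, the only locus named anterior gradient protein 3-like, had 2, both in barbel tissue. All 4 AGR2 loci thus had their highest count in EM, the deeper library. In CPM, PB.3657 was at 18.3 in EM and at 33.6 in WE1, on 1 count there, and PB.4817 was level between EM and dorsal skin tissue. These copies name 4 different sterlet proteins, and reads of near-identical copies could have been split between them, so the level of a single locus is uncertain. Summed, the 5 loci had 321 counts in EM (1173 CPM), 8 in the 5 other green cultures (7.84 CPM), 3 in the white cultures (5.40 CPM) and 40 in the white tissues (62.4 CPM).

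The gel-forming mucins showed another distribution. The 4 loci held 229 counts in the tissues, found in all 6, and 1 count in the 11 epithelial cultures, in MM. Tissue levels were 1309 CPM at the esophagus, 1096 CPM at the upper palate, 733 CPM at the mouth rim, 49.0 CPM in barbel, 15.6 CPM in dorsal skin and 13.3 CPM in ampullae. The esophagus, palate and mouth rim tissues thus each stood above the barbel, dorsal skin and ampullae tissues, so that the integument sites, of which the mouth rim is one, differed among themselves. With 1 library per tissue site, the order was not tested.

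EM, the culture with the most AGR2, had 0 counts of gel-forming mucin. The esophagus tissue WE1 had 39, and its level was at least 119-fold higher, with 3 counts as the limit in EM. EM did have 44 counts (161 CPM) of integumentary mucin C.1-like, a name outside the rule. EM is of green and WE1 of white sturgeon, so that species and culture against tissue cannot be told apart in this gap. Nor can fewer mucous cells and less mucin RNA per cell, in bulk libraries.

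**Figure D3:**
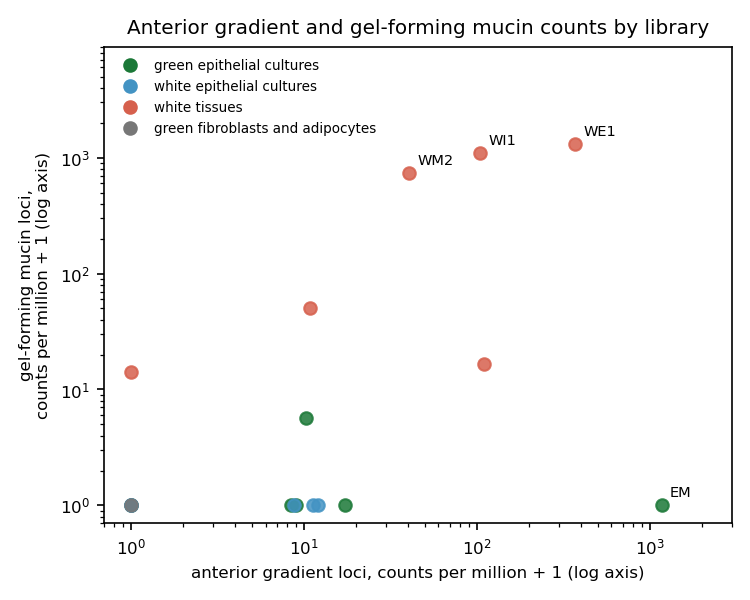
Summed anterior gradient loci (x axis) against summed gel-forming mucin loci (y axis) in the 18 libraries, both as CPM plus 1 on log axes, coloured by group. EM lies far right on the floor, with 1173 CPM of anterior gradient and none of gel-forming mucin, while the tissues WE1, WI1 and WM2 lie at the top.

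PB.13250, mucin-2-like, was the main gel-forming locus. It is named for the secreted mucin that forms the intestinal mucus layer in mammals. It had 0 counts in all 11 epithelial cultures and in FAF. In the tissues it had 28 counts in esophagus (940 CPM), 54 in upper palate (696 CPM), 56 in mouth rim (446 CPM), 7 in barbel (34.3 CPM), 1 in ampullae (13.3 CPM) and 1 in dorsal skin (7.78 CPM). Every tissue therefore had a count and no culture had one, although the lowest tissues rested on 1 count. A count of 0 allows 9.92 CPM in AF, the deepest culture, and more in the others. Dorsal skin and ampullae therefore cannot be placed above the single cultures. Pooled white tissues were at least 42.5-fold above the white cultures, with 3 counts as the limit over the 5 cultures. Its counts were spread over 7 transcripts, named as isoforms X1, X2 and X3 of mucin-2-like, and the most frequent, PB.13250.15, had 43.

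PB.13249 carries the names of the same sterlet proteins as PB.13250, and reads could have been split between the copies. It had 1 count in the green mouth rim culture MM and 0 in the other 10 epithelial cultures, and 29 counts in mouth rim tissue (231 CPM), 19 in upper palate (245 CPM) and 3 in barbel (14.7 CPM). In esophagus tissue it had 0 counts, where PB.13250 had 28. The copies therefore differed in which tissues held them, although a count of 0 in the shallow WE1 allows up to 101 CPM.

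PB.7336, mucin-2, had 9 counts in esophagus tissue (302 CPM), 7 in upper palate (90.2 CPM) and 4 in mouth rim (31.9 CPM), and 0 elsewhere. PB.7337, named mucin-19-like after a mucin of mammalian salivary glands, had 5 counts in upper palate, 3 in mouth rim, 2 in esophagus and 1 in dorsal skin tissue, and 0 elsewhere. No culture had a count with either name, which over the 11 epithelial cultures allows up to 1.62 CPM.

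In the esophagus fit, PB.7336 was 5.28 higher on the log2 scale (SE 1.09, adjusted p = 0.0794, edgeR) and PB.13250 2.89 higher (SE 1.16, adjusted p = 0.402), and neither passed. PB.7336 in this fit also included 9 counts named integumentary mucin B.1-like and 4 without a name, and 1 of these 13 was in EM. It passed with no filter on low counts (adjusted p = 0.000634) and without MM or the mouth rim tissue WM2 (adjusted p = 0.0404 and 0.0390), and PB.13250 passed without WM2 (5.02, adjusted p = 0.0349, all edgeR). PB.13249 had a log2 difference of -3.02 (adjusted p = 0.720, edgeR). PB.18995, whose name has the prefix low quality protein and so fell outside the name rule, had 39 counts at its locus in WE1, 7 in WI1 and 1 in WM2, and 0 elsewhere, EM included. It was 8.17 higher on the log2 scale (SE 0.957, adjusted p = 0.00121, edgeR), a call that rested on WE1 alone and that was not made with DESeq2 (7.12, adjusted p = 0.636) or with the batch number of the labels as a factor (4.42, adjusted p = 1, edgeR). Reads named mucin-2 were thus found in the white esophagus tissue and not in the green esophagus culture, where species and culture against tissue cannot be told apart.

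The upper palate was fitted against the integument in the same model. None of 3723 loci passed with edgeR (0%), 370 were at an unadjusted p under 0.05, and DESeq2 called 2. PB.7336 was 3.71 higher on the log2 scale (SE 1.12, adjusted p = 0.437, edgeR), PB.13250 2.49 higher (SE 1.12, adjusted p = 0.488) and PB.4814 1.64 higher (SE 0.949, adjusted p = 0.583). PB.13249 and PB.8449 were at 1.51 and 0.79 without a call. These are values that did not pass, and the palate cultures IM and IF had 0 counts of all gel-forming loci, as against 85 in the palate tissue WI1. These cultures are of green and the tissue of white sturgeon, so that species and culture against tissue cannot be told apart.

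PB.8449, trefoil factor 2-like, was the only member read in all 18 libraries, with 134 counts in 1 transcript. In mammals TFF2 is a product of mucous cells of the stomach. Green cultures had 12 counts in EM, 16 in IF, 14 in AF, 4 in MM, 3 in IM and 1 in GA1, which gave 34.3 ± 21.3 CPM (SD, n = 6). White cultures had 5 counts each in W8 and WS2, 3 in WS1 and 1 each in WM and W12, which gave 27.6 ± 20.1 CPM (SD, n = 5). The ranges of green and white cultures overlapped widely, at 7.47 to 65.3 CPM and 8.70 to 55.6 CPM.

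White tissues had 12 counts in esophagus (403 CPM), 12 in mouth rim (95.6 CPM), 6 in ampullae (79.6 CPM), 5 in upper palate (64.5 CPM), 8 in barbel (39.2 CPM) and 4 in dorsal skin (31.1 CPM), 119 ± 141 CPM in all (SD, n = 6). Without the esophagus, the tissues thus stood at 31.1 to 95.6 CPM and overlapped with the cultures. In the esophagus fit PB.8449 was 2.01 higher on the log2 scale (SE 0.678, adjusted p = 0.322, edgeR), which did not pass. At the esophagus the order of culture and tissue was the reverse of AGR2: EM had 43.8 CPM of trefoil factor and WE1 403 CPM, a ratio of 0.109 (95% counting interval 0.0447 to 0.265). EM is of green and WE1 of white sturgeon, so that species and culture against tissue cannot be told apart. FAF, which is not epithelial, had 22 counts, 90.5 CPM (59.8 to 137), against 38.6 CPM in the pooled green epithelial cultures, a ratio of 2.34 (1.35 to 3.94).

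The membrane mucins were spread over cultures and tissues alike. MUC16 in mammals is a large glycoprotein of moist epithelial surfaces. PB.26591 and PB.26590, both mucin-16-like and named for 1 sterlet protein, had 107 and 65 counts in 19 and 13 transcripts, none with more than 18 counts. PB.26591 had 13 counts in IF, 7 in IM, 6 each in MM and GA1, 4 in EM and 0 in AF, and 6 in WS2, 5 in W8, 4 in WS1, 3 in W12 and 1 in WM. In tissue it had 22 counts in mouth rim (175 CPM), 21 in barbel (103 CPM), 7 in dorsal skin (54.5 CPM), 2 in ampullae (26.5 CPM) and 0 in upper palate and esophagus. Its highest tissue levels were thus at the mouth rim and barbel, and of these the barbel had little gel-forming mucin. In the esophagus fit its log2 difference was -1.65 (adjusted p = 0.696, edgeR).

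PB.26590 had 13 counts in IF, 8 in IM, 6 in MM, 4 in EM, 2 in GA1 and 1 in AF, and 5 each in WS2 and W12, 2 in WS1, 1 in W8 and 0 in WM. In tissue it had 12 in barbel, 4 in mouth rim, 1 each in ampullae and upper palate and 0 in dorsal skin and esophagus. The transcripts of both loci are many and thinly read, and splitting of reads between the loci cannot be settled from the table. PB.22, mucin-17-like, had 4 named counts, 2 in MM and 1 each in barbel and ampullae tissue. Summed, membrane mucins were at 64.0 ± 44.5 CPM in green cultures (SD, n = 6), 59.3 ± 41.1 CPM in white cultures (SD, n = 5) and 82.3 ± 84.7 CPM in white tissues (SD, n = 6), differences smaller than the spread. They were at 0 counts in WE1 and FAF, which allows up to 101 and 12.3 CPM.

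**Figure D4:**
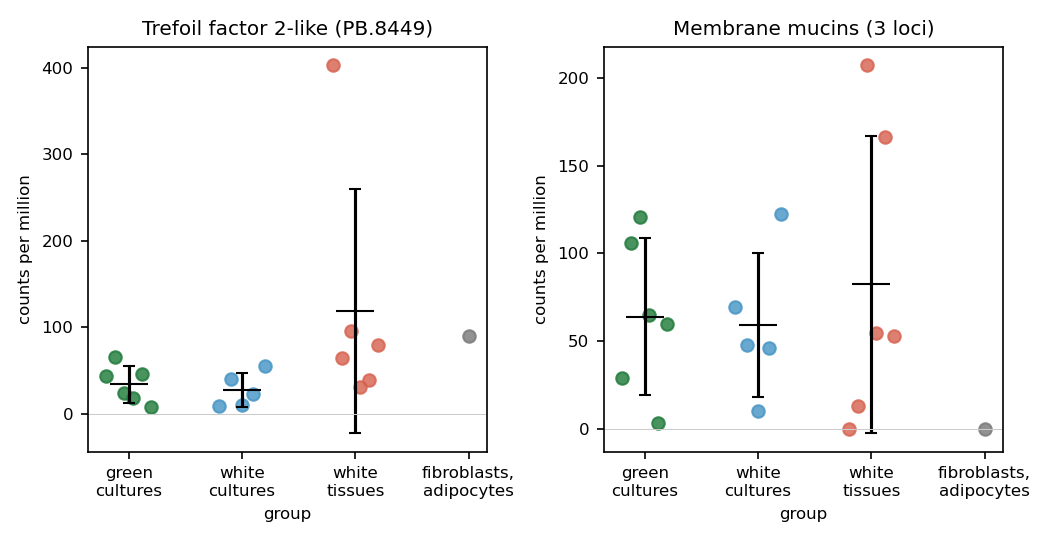
Trefoil factor 2-like (left) and summed membrane mucins (right) in CPM, 1 point per library, with bars at the mean ± SD of the green cultures (n = 6), white cultures (n = 5) and white tissues (n = 6). Trefoil factor is highest in the esophagus tissue at 403, and the group ranges of both overlap.

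White epithelial cultures were then compared with white tissues over all loci. No member passed the filter on low counts there, where 56.9% of 1863 loci were called, so the members were read from the fit without a filter, in which 22.6% of 11933 loci were called, 12.3% as lower and 10.3% as higher in culture. Of the 12 member loci with a count in either group, 7 were lower in culture and 0 higher. They were the 4 gel-forming loci, PB.4814, PB.8449 and PB.22, although 11 of the 15 counts of PB.22 had no name. The gel-forming loci had 0 named counts in the white cultures and entered through the tissues, so they could hardly come out higher in culture. The tally of 7 against 0 is therefore no test of direction.

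The gel-forming loci had log2 differences of -8.10 (PB.13250, SE 0.891, adjusted p = 6.46e-17), -6.23 (PB.13249, adjusted p = 5.80e-08), -6.10 (PB.7336, adjusted p = 4.33e-07) and -4.27 (PB.7337, adjusted p = 0.00697) with edgeR. The fitted folds of loci at 0 in culture depend on the prior count and are no bounds. Adjusted p in the unfiltered fits, here and for green against white, draws on a spread shared over all loci, many with few counts. It therefore says little of the spread between libraries at a single locus. Only PB.13250 had groups that did not overlap, as 11% of all loci had. DESeq2 kept the call for PB.13250 (adjusted p = 0.000134) but not for PB.13249, PB.7336 and PB.7337 (0.148, 0.104 and 0.0679), so that it called 4 members in place of 7.

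PB.4814 fell by 3.91 on the log2 scale (SE 0.864, adjusted p = 0.000111, edgeR), with 2 counts in the white cultures against 29 in the tissues. PB.8449 fell by 1.96 (SE 0.599, adjusted p = 0.00816, edgeR), with 27.0 CPM in the pooled white cultures against 73.3 CPM in the pooled tissues. Its call was lost without W12 (fell by 1.63, adjusted p = 0.0557) or without the esophagus tissue WE1 (fell by 1.24, adjusted p = 0.137, both edgeR). The mucin-16-like loci had log2 differences of -0.29 (PB.26590, adjusted p = 0.785) and -1.08 (PB.26591, adjusted p = 0.162) and did not pass in edgeR. Of the 6 tissues, 4 came from sites not cultured in white sturgeon, so that site and kind cannot be told apart for the loci that vary by site. At the mouth rim itself, the gel-forming loci had 0 counts in the 3 white cultures and 92 in the tissue.

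Green epithelial cultures were compared with white ones in the same way. Again no member passed the filter, where 57.6% of 2125 loci were called, and without a filter 29.2% of 12147 loci were called, 14.6% as higher in green. Of 10 member loci with a count, PB.4814 was called higher, by 5.59 on the log2 scale (SE 0.673, adjusted p = 8.60e-15, edgeR), and none lower. That call came from EM, so its p says little of the spread among the green cultures. Without EM the log2 difference was 0.67 (adjusted p = 0.689, edgeR). The 5 other green cultures had 6 counts against 2 in the white cultures, a ratio of CPM of 1.63 (95% counting interval 0.292 to 16.5). DESeq2 gave no p for PB.4814, and with the library set as a factor it turned to -2.44 (adjusted p = 0.732, edgeR). No white culture was from the esophagus, upper palate or ampullae, and no green culture was from skin. Green and white cultures also differed in whether explants were set up before or after trypsinization. Species cannot be told apart from this way of culture, and only in part from site, in any green against white difference given here. GA1 alone of the green cultures shared the library set of the white ones, so species and set are largely confounded too. With the set as a factor, the green against white difference therefore rests on GA1. PB.8449 and the mucin-16-like loci were at 0.50, 0.42 (PB.26590) and -0.15 (PB.26591) on the log2 scale, with adjusted p of 0.529, 0.649 and 0.864 in edgeR.

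A mucus list, chosen by protein name, held 28 loci, of glycosyltransferases, mucus proteins such as the IgGFc-binding protein, and calcium-activated chloride channel regulators. In white cultures against tissues 2 of them were tested and both were called, beside 56.9% of all loci: PB.5250, a transferase of the GALNT family that starts O-glycosylation, was higher by 1.97 (adjusted p = 0.00126), and PB.28876, an IgGFc-binding protein-like locus, fell by 2.24 on the log2 scale (adjusted p = 0.0454, both edgeR). The call on PB.28876 was lost with DESeq2 (fell by 2.04, adjusted p = 0.133), with the stricter filter (adjusted p = 0.0638, edgeR), with no TMM (adjusted p = 0.0838, edgeR) and without any of WS1, WS2, W12, W8, WM2 or WE1, where it fell by 1.53 to 2.27. Between green and white cultures 3 were tested and 1 was called, beside 57.6% of all loci: PB.12036, GALNT3-like, was higher by 0.96 (adjusted p = 0.0246, edgeR), a call lost without WS1, WS2 or W8 (0.85, 0.85 and 0.90) and with the library set as a factor (0.14, adjusted p = 0.889). At the esophagus and the palate 10 were tested each and none passed in edgeR, with medians of -0.20 and 0.06 beside -0.17 and -0.12 for all loci. At an unadjusted p under 0.05 stood 1 and 0 of them.

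A second list held 25 loci, mostly of other disulfide isomerases and secretory chaperones, AGR2 being an isomerase. It also took in X-box-binding protein 1-like and cyclic AMP-responsive element-binding protein 3-like loci. Of the latter, PB.13079 was among those tested at the esophagus and palate. Between green and white cultures 5 were tested and all were called, 3 higher and 2 lower, beside 57.6% of all loci: PB.6877 (PDIA6-like) was higher by 5.83 on the log2 scale, PB.21179 (PDIA3-like) by 1.89 and PB.4276 (TXNDC5-like) by 1.73, and PB.3980 (PDIA4-like) was lower, at -1.79, as was PB.11373 (calreticulin-like), at -5.17 (largest adjusted p = 0.00427, edgeR). With the library set as a factor the calls on PB.4276 (0.83, adjusted p = 0.457) and PB.3980 (-1.46, adjusted p = 0.0695) were lost. Loci of like names were not tested here: PB.2814 (PDIA4-like, 132 counts), PB.3112 (TXNDC5, 116), PB.24518 (calreticulin, 76), PB.9930 (calreticulin-like, 10), PB.27830 (PDIA3-like, 3) and PB.5825 (PDIA6-like, 2). Reads could have been split between such copies, so the level of a single locus is uncertain. In white cultures against tissues 1 of 4 was called, beside 56.9% of all loci. It was PB.13125 (endoplasmin-like), which fell by 2.25 (adjusted p = 0.000323, edgeR). At the esophagus and palate none of 9 was called, with 0 at an unadjusted p under 0.05 in either, and medians of -0.31 and -0.21 beside -0.17 and -0.12 for all loci (edgeR).

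The loci whose levels most resembled PB.4814 over the 18 libraries were sought among 3376 loci with at least 100 counts, by Pearson's r of log2(CPM + 10). The points share library totals, and EM weighs heavily in them. The first was PB.22873, IgGFc-binding protein-like (r = 0.738, Spearman's rho = 0.850), a mucus component in mammals, with 110 CPM in EM and 1577 CPM in WE1, its highest level. Next came PB.25924, uncharacterized (0.715), PB.9750, a CREB/ATF bZIP factor (0.708), PB.7091, ribosomal protein S16 (0.691), PB.4759, sorcin-like (0.690), the unnamed PB.17783 (0.689), PB.19122, DKK3-like (0.681), the unnamed PB.26358 (0.672), PB.2507, S100-P-like (0.670), and PB.24456, a cold-inducible RNA-binding protein (0.662). No locus reached 0.9. PB.2507 had all its 250 counts in EM (913 CPM). Among the members compared, r was 0.515 for PB.13250, 0.479 for PB.8449 and -0.23 for PB.26591, and without EM 0.824, 0.650 and -0.21. EM had the highest level of PB.4814 and 0 counts of PB.13250, so that leaving it out raises their r, and r without EM was higher still for PB.22873 (0.895), PB.7091 (0.877) and PB.24456 (0.868).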

How the data were processed

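The deposited values are whole-number counts of full-length reads per transcript and library, not normalized, which the authors made with IsoSeq3 3.4.0 on the sterlet genome (ASM1064508v1), Sqanti3 4.1 with a minimum of 3 supporting reads, and blastp 2.14.1+ names at 80% identity or more. The aligner is not given in the sources used here. Transcripts below that minimum were not analysed here, and sequences were not used here.

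Members and gene lists were chosen with earlier results of these data known. Loci with at least 10 counts are described, those with at least 50 by library, together with the 10 loci most like PB.4814 and the list genes of at least 100 counts called in a comparison. Counts of all transcripts of a locus, unnamed ones included, were tested with edgeR 4.0.16 (R 4.3.3, limma 3.58.1, TMM, filterByExpr, glmQLFTest, FDR 0.05), checked on simulated counts. Of 200 loci changed in that simulation, the esophagus fit called 29% and the palate fit 64%. Culture against tissue called 74% and green against white 61%. A locus that did not pass at the esophagus may therefore still differ. The simulation gave all loci the same fixed dispersion, all changed loci the same size of fold, and no other difference between groups. Its shares need not hold for the member loci. DESeq2 1.42.0, no filter, a filter of at least 50 counts, no TMM, FDR 0.01, protein names within loci, the sample number, the batch number of the GEO labels (also the barcode number of the column headers) or the library set as factors, and leaving out each library were alternatives. For culture against tissue and green against white, the unfiltered fits combined with these were added after seeing the data. 1 list locus, PB.14540, was left out because most of its counts had another name. Other work used Python 3.11.15, numpy 2.4.6, pandas 2.3.3, scipy 1.17.1 and matplotlib 3.10.9. Every value column belonged to a labelled library.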

Additional observations from a re-analysis of the deposited data

Results flagged for a closer look

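Single libraries stood far from the rest of their group at 7 of the 20 combinations of a member locus and a group tested with Dixon's criterion. Its rate of about 1 in 20 by chance holds for normally distributed values, which levels resting on few counts are not. The 7 cannot therefore be set against chance. At 2 of the 7 the library held 1 count and the rest of its group 0, which meets the criterion by construction. AGR2 at PB.4814 stood apart in the green esophagus culture EM (1081 CPM, against 12.2 CPM in the next green culture) and in the white esophagus tissue WE1 (302 CPM, against 103 CPM in the next tissue). PB.4817 stood apart in EM with 54.8 CPM and, on 1 count, in the white skin culture WS1 with 7.72 CPM. In WE1 the mucin-2 locus PB.7336 reached 302 CPM and the trefoil factor locus PB.8449 403 CPM, against 90.2 and 95.6 CPM in the next tissues. PB.13249 stood apart in the green mouth rim culture MM at 4.64 CPM, which is 1 count.

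The green fibroblast and adipocyte library FAF, which entered none of the fits across loci, had 90.5 CPM of PB.8449 (22 counts), above the 12.3 CPM that 3 counts amount to there.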

How the results depend on the processing

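Counts of called loci moved with the settings. At the esophagus 3 were called, against 20 with DESeq2, 76 with no filter, 6 with the stricter filter, 1 with the batch number and 0 with the replicate block, and 1 to 16 when 1 library was left out. At the upper palate 0 were called, against 2 with DESeq2, 50 with no filter and 0 to 6 without 1 library. Green against white cultures gave 1223, against 3551 with no filter, 2022 with the stricter filter and 464 with the library set as a factor (1048 to 1297 without 1 library), and white cultures against tissues 1060, against 2691 with no filter (832 to 1075 without 1 library). PB.4814 turned to -2.44 between green and white cultures with the library set. For white cultures against tissues, no TMM moved the median of all loci from -0.04 to 0.27 and the higher share of calls from 48.5% to 59.7%. In the unfiltered fits the median was -0.28, against -0.15 with DESeq2 and -0.12 with no TMM, and for green against white 0.31, against -0.24 and 0.12. With no TMM, 7 members were again lower in culture. Over the settings other than leaving out a library, adjusted p at the esophagus ran from 1.97e-16 to 0.102 for PB.4814 and from 0.000634 to 1 for PB.7336. In culture against tissue it ran up to 0.000134 for PB.13250, 0.148 for PB.13249, 0.104 for PB.7336, 0.0679 for PB.7337, 0.0329 for PB.8449, 0.0102 for PB.4814 and 0.230 for PB.22 (all edgeR or DESeq2). Leaving out transcripts under 10 counts took membrane mucins to 9.45 and 11.5 CPM in green and white cultures. The causes were not tested.

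Samples with the same title number correlated at -0.19 to 0.13 between groups. Not every library correlated best with its own number, so no pairing by number was seen. Most of these samples differ in site or species, so libraries that share a fish could go unseen here. The replicate block lost the esophagus call of PB.4814 (6.24, adjusted p = 0.102, edgeR) and those of PB.18995 and PB.28876, and 7 members were again lower in white cultures. PB.18995 did not pass the filter without WE1 or WI1, so it had no value there. WE1 had 29797 counts, which limits every value at that site.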

Other observations

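Mucins whose names lie outside the rule were counted too, chosen after their values were seen. Integumentary mucin C.1-like, named after a mucin of frog skin, was read in 17 of the 18 libraries, at 124 ± 78.4 CPM in green cultures (SD, n = 6), 81.3 ± 59.6 CPM in white cultures (SD, n = 5) and 108 ± 45.2 CPM in white tissues (SD, n = 6). EM had 161 CPM of it (44 counts) and WE1 168 CPM (5 counts), and FAF had 0 counts. The group differences were smaller than the spread between libraries. Integumentary mucin C.1-like was thus read in cultures at a level like that of tissue, unlike the loci grouped as gel-forming by name. Whether it also forms gels was not tested. Integumentary mucin A.1 had 1 count in the green cultures, 11 in the white cultures and 10 in the tissues. Integumentary mucin B.1-like had 9 counts, all in esophagus, palate and mouth rim tissue, and intestinal mucin-like protein had 2, in barbel and palate tissue.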
